A study of Mus musculus with 12 samples.

Results

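The Ifit family (interferon-induced proteins with tetratricopeptide repeats) was examined in a mouse fibroblast line through 5 genes, Ifit1, Ifit2, Ifit3, Ifit3b and Ifit1bl1. They were taken by name from the 54532 genes listed in each count file. All 5 were among the 16840 genes that passed a filter on low counts and were tested. On mm10, the build of the files, they lie on chromosome 19 within 99.3 kb. Ifit2 (ENSMUSG00000045932) spans chr19:34550694-34576419, Ifit3 (ENSMUSG00000074896) chr19:34583531-34588731, Ifit3b (ENSMUSG00000062488) chr19:34607970-34613401 and Ifit1 (ENSMUSG00000034459) chr19:34640871-34650009, all on the plus strand. Ifit1bl1 (ENSMUSG00000079339) spans chr19:34592891-34601956 on the minus strand, between Ifit3 and Ifit3b. Positions are from GENCODE release M21, and all 5 are annotated as protein-coding.

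The study sequenced polyA-selected RNA from L929, an established mouse fibroblast line, in 12 libraries under 6 labels of 2 libraries each. Libraries labelled HT-DNA, hpRNA, G3-YSD and HSV came from cells after transfection of the agent named, those labelled cGAMP from cells stimulated with cGAMP, and those labelled mock from cells without treatment. RNA was prepared 6 h after transfection, per the labels' protocols, and abbreviations are written as the labels have them. Each library is called here by its label and the number that ends its title, which was read as a replicate number, though for HSV the digits could also name virus types 1 and 2. The labels say that transfections were made in duplicate but not whether the 2 libraries of a label came from separate cultures, so p-values measure only the spread between these libraries, which may be technical. All the cells were of 1 line, and no dose is given.

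Ifit genes are among the interferon-stimulated genes: type I interferon, released by cells that sense a virus, switches them on through its receptor, and the transcription factor IRF3, activated when a cell senses viral DNA or RNA, can switch Ifit genes on without interferon. Cytosolic DNA is sensed by cGAS, which makes the messenger cGAMP that binds STING, and RNA is sensed by RIG-I and MDA5, which signal through MAVS. The proteins are built of tetratricopeptide repeats and act on foreign RNA and on translation. Ifit1 binds capped RNA that lacks the ribose methylation of host caps and blocks its translation. Ifit2 limits the spread of neurotropic viruses in mice. In human cells IFIT3 binds IFIT1 and strengthens its hold on capped RNA, and mouse Ifit3b is a close copy of Ifit3.

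Total counts ran between 12650790 and 18912400 per library. The libraries did not group by label. The distance between 2 libraries was measured as the squared difference in a gene's counts over that which counting alone gives, taking the median of genes whose counts in the pair summed to 100 or more, so that 1 means agreement within sampling noise. In 12 of 12 cases the nearest library bore another label and the same number, at a distance of 1.41 to 2.03, while libraries of 1 label stood 3.52 to 82.6 apart. The close pairs were HT-DNA with cGAMP, G3-YSD with HSV, and hpRNA with mock, in both numbers. Outside these pairs the mock library of the same number was not always the nearer. HT-DNA 1, cGAMP 1 and G3-YSD 1 stood at 2.31, 2.31 and 49.6 from mock 2 and at 7.45, 8.43 and 66.4 from mock 1. HT-DNA 2 and cGAMP 2 also stood nearer mock 2, at 2.86 and 3.86, than mock 1, at 11.5 and 13.0. The fibroblast markers summed to between 2905 and 5012 CPM (counts relative to the library's total, on the TMM scale of edgeR), though Dcn had no count in any library and Thy1 stayed below 0.5 CPM. Markers of other cell types summed to between 73.3 and 95.2 CPM, of which the macrophage gene Cd68 made most. Some genes of both lists varied between the libraries, and those named here were chosen after their values were seen. The endothelial gene Kdr reached 10.5 and 8.15 CPM in G3-YSD 1 and HSV 1 and at most 0.519 CPM in the other libraries. These others include HT-DNA 2 and cGAMP 2, where summed Ifit RNA was higher than in either mock library. The fibroblast genes Col1a1, Col1a2 and Pdgfra ran against the Ifit pattern (r = -0.82, -0.83 and -0.79 over the 12 libraries). Fap, another fibroblast gene, went the other way (r = 0.69), with 8.27 and 9.38 CPM in G3-YSD 1 and HSV 1. It had 2.23 and 1.82 CPM in G3-YSD 2 and HSV 2, and 0.737 and 0.649 CPM in HT-DNA 2 and cGAMP 2. The other fibroblast markers tested had negative r, the weakest being -0.09 for Fn1. Their part in the results was not tested. In bulk RNA, fewer cells expressing a gene and less of its RNA per cell cannot be told apart.

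The promoters of 4 of the 5 members held the core of the interferon-stimulated response element, a motif to which transcription factors of the IRF family bind. The windows below cover 250 bases before to 50 after a RefSeq transcript start on GRCm38.p6, the assembly of mm10. They are shown because the members differ in this element and in their levels, and capitals mark each match to the letters GAAANNGAAA on either strand. The members are in the order of their windows' element count, with Ifit2, which had none, last.
Ifit1, chr19:34640639-34640938, plus strand: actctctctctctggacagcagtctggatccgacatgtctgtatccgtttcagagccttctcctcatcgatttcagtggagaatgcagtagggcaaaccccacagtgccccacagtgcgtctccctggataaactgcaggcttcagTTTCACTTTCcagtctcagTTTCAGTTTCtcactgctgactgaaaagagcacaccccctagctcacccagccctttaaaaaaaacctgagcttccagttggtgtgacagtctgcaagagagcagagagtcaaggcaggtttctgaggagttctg
Ifit3, chr19:34583279-34583578, plus strand: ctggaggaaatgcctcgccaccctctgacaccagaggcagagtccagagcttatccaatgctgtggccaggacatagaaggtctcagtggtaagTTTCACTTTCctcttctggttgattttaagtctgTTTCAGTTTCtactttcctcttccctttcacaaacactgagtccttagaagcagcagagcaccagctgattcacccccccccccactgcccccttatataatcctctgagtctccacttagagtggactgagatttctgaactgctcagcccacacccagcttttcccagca
Ifit3b, chr19:34607707-34608006, plus strand: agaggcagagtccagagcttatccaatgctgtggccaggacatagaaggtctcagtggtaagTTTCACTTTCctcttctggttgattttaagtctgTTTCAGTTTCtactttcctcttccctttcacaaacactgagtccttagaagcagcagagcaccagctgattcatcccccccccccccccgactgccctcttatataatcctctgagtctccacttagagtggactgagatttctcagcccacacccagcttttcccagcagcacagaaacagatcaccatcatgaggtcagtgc
Ifit1bl1, chr19:34601919-34602218, minus strand: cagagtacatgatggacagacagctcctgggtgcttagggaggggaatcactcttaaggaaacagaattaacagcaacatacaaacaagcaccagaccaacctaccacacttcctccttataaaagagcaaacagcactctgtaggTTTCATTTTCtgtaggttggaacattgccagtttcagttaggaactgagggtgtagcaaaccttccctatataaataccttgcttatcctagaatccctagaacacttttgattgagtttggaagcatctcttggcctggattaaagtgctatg
Ifit2, chr19:34550444-34550743, plus strand: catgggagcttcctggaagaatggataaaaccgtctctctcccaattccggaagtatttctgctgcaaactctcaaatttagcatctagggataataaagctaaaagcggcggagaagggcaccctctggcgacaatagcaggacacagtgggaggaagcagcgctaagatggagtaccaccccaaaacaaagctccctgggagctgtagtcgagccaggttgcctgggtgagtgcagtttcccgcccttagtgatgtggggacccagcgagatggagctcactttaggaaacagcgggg
Ifit1, Ifit3 and Ifit3b carried the same pair of elements, TTTCACTTTC and then TTTCAGTTTC. In Ifit1 they began 104 and 85 bases before the start, in Ifit3 156 and 122 bases before it, and in Ifit3b 188 and 154 bases before it. Aligned with each other over their full length, the Ifit3 and Ifit3b windows had 259 identical bases, 1 mismatch and 80 gap positions. The windows begin at different points of the sequence they share, so the gap positions include their unmatched ends. Ifit1bl1 carried a single TTTCATTTTC, 104 bases before the start shown. The same letters stood in the window of its other annotated start. Ifit2 had no match in the window shown or in that of its other annotated start, which says only that these letters are not in these windows. Over all RefSeq windows of this length, 3.44% (1131 of 32851) held a match, and 3.99% of genes (1079 of 27025) had one in a window.

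Summed over the 5 members, Ifit RNA was highest in the libraries numbered 1 of G3-YSD and HSV, at 4502 and 4443 CPM, and lowest in the libraries numbered 1 of hpRNA and mock, at 42.3 and 45.4 CPM. The libraries numbered 2 of G3-YSD and HSV had 112 and 98.1 CPM. Those of HT-DNA, hpRNA, cGAMP and mock had 1542, 941, 1649.5 and 1046 CPM, and HT-DNA 1 and cGAMP 1 had 316 and 363 CPM. Library 2 was above library 1 under HT-DNA, hpRNA, cGAMP and mock, and below it under G3-YSD and HSV. As a share of all counts, Ifit reads made up between 0.00437% in hpRNA 1 and 0.445% in G3-YSD 1.

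**Figure D1:**
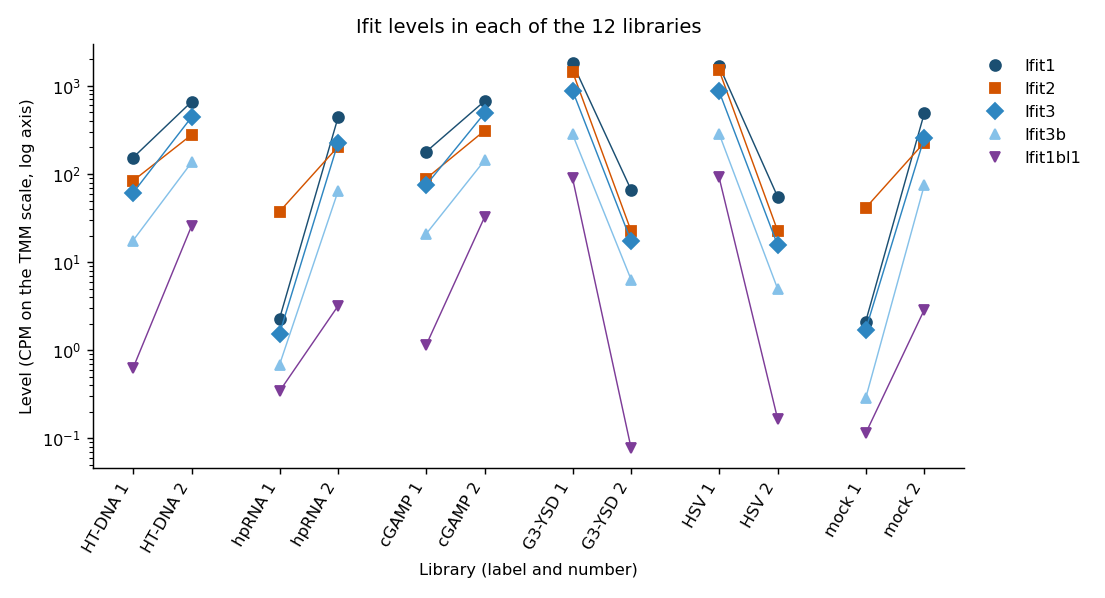
Level of each Ifit gene in each of the 12 libraries, in CPM on the TMM scale on a log axis. Each point is 1 library and a line joins the 2 libraries of a label. Every gene is higher in the library numbered 2 under HT-DNA, hpRNA, cGAMP and mock and lower in it under G3-YSD and HSV, and Ifit2 spans less of the axis than the others.

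Ifit1, the member that blocks translation of incompletely capped RNA, had 153 and 661 CPM in HT-DNA 1 and 2, 2.28 and 441 CPM in hpRNA 1 and 2, and 178 and 672 CPM in cGAMP 1 and 2. It had 1805 and 65.7 CPM in G3-YSD 1 and 2, 1696 and 54.9 CPM in HSV 1 and 2, and 2.10 and 486 CPM in mock 1 and 2. The counts behind the extremes were 30567 in G3-YSD 1 and 37 in mock 1, an 858-fold range. The 2 untreated libraries lay far apart, and no label had both of its libraries above, or both below, the 2 of mock.

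Ifit2 had 83.6 and 278 CPM in HT-DNA 1 and 2, 37.4 and 205 CPM in hpRNA 1 and 2, and 88.5 and 311 CPM in cGAMP 1 and 2. It had 1446 and 22.5 CPM in G3-YSD 1 and 2, 1504 and 22.5 CPM in HSV 1 and 2, and 41.2 and 227 CPM in mock 1 and 2. Its lowest libraries were G3-YSD 2 and HSV 2, with 292 and 273 counts, and not mock 1 and hpRNA 1 as for Ifit1. Its range over the 12 libraries was 67.0-fold, the narrowest of the 5 members.

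Ifit3 had 61.0 and 442 CPM in HT-DNA 1 and 2, 1.54 and 227 CPM in hpRNA 1 and 2, and 74.6 and 491 CPM in cGAMP 1 and 2. It had 881 and 17.3 CPM in G3-YSD 1 and 2, 866 and 15.5 CPM in HSV 1 and 2, and 1.71 and 256 CPM in mock 1 and 2, a 572-fold range. The order of the libraries was that of Ifit1 except that hpRNA 1 lay below mock 1, with 27 and 30 counts. Ifit3b, its close copy, had 17.5 and 135 CPM in HT-DNA 1 and 2, 0.685 and 64.2 CPM in hpRNA 1 and 2, and 20.8 and 143 CPM in cGAMP 1 and 2. It had 281 and 6.31 CPM in G3-YSD 1 and 2, 286 and 4.95 CPM in HSV 1 and 2, and 0.284 and 74.2 CPM in mock 1 and 2. The lowest of these values rests on 5 counts.

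Reads could be shared between these 2 genes. Of the stretches of 150 bases, the read length, in the annotated transcripts, 18.5% of those in Ifit3 and 16.0% of those in Ifit3b occurred in both, 296 stretches each, and the way the counting treated them is not given in the sources used here. Ifit3b counts were 27.9% to 36.4% of Ifit3 counts in 10 libraries. They were 44.4% (95% exact binomial interval 20.5% to 90.7%) in hpRNA 1 and 16.7% (5.05% to 43.4%) in mock 1, where both genes had few counts. Ifit2 and Ifit1bl1 shared no such stretch with any gene, and Ifit1 shared 31 of 2507 with the neighbouring Ifit1bl2. All intervals given for libraries cover counting error only.

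Ifit1bl1, the least abundant member, had 0.625 and 25.7 CPM in HT-DNA 1 and 2, 0.342 and 3.19 CPM in hpRNA 1 and 2, and 1.14 and 32.6 CPM in cGAMP 1 and 2. It had 89.2 and 0.0769 CPM in G3-YSD 1 and 2, 91.5 and 0.165 CPM in HSV 1 and 2, and 0.114 and 2.87 CPM in mock 1 and 2. The low values rest on 1 count in G3-YSD 2, 2 in HSV 2, 6 in hpRNA 1 and 2 in mock 1, against 1510 in G3-YSD 1 and 1492 in HSV 1. Within the libraries numbered 2 it set HT-DNA and cGAMP apart from hpRNA and mock more than any other member did, with 419 and 502 counts against 57 and 47.

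Set by the mean of its 2 libraries, the order of the labels began with G3-YSD and HSV for all 5 members, followed by cGAMP and HT-DNA. For Ifit1 the means were 935 ± 1229.8 CPM in G3-YSD, 875 ± 1160.3 in HSV, 425 ± 349 in cGAMP, 407 ± 359 in HT-DNA, 222 ± 310.1 in hpRNA and 244 ± 342 in mock (SD, n = 2 each). hpRNA lay below mock for 4 members and above it for Ifit1bl1, at 1.77 against 1.49 CPM. For all 5 members the libraries of each label overlapped those of its neighbour in this order, so no step in it exceeded the spread within labels.

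The study's design sets each agent against mock, and the DNA agent HT-DNA against the RNA agent hpRNA. For HT-DNA against mock the fitted log2 fold changes of all 5 members were positive, from 0.43 for Ifit2 to 3.15 for Ifit1bl1, and none passed the test. The standard errors, 1.97 for Ifit2 and 2.55 to 3.03 for the others, compare with a median of 0.35 over all genes. In edgeR's quasi-likelihood test 0 of 5 members were called at an adjusted p under 0.05 and 0 had an unadjusted p under 0.05, the lowest being 0.328 for Ifit1bl1, and DESeq2 called 0. Among all 16840 genes 0.0% were called and 0.368% had an unadjusted p under 0.05. The libraries of HT-DNA and mock overlapped for all 5 members, while over all genes 13.8% were higher and 14% lower without overlap. Without HT-DNA 2 all 5 fold changes were negative, from -1.24 to -0.68, and without mock 1 those of Ifit1, Ifit2 and Ifit3 were, the lowest at -0.32.

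For hpRNA against mock the values were near 0, at -0.14 for Ifit1, -0.15 for Ifit2, -0.17 for Ifit3, -0.20 for Ifit3b and 0.26 for Ifit1bl1, with standard errors of 1.97 to 3.01. A miss of the threshold with such errors does not show that the levels were alike. None of the 5 was called and none had an unadjusted p under 0.05 (edgeR's quasi-likelihood test; DESeq2 also called 0), against 0.0% and 0.344% of all genes. The libraries overlapped for all 5, and 10.5% of all genes were higher and 10.3% lower without overlap. Leaving out a single library moved the members' range to between -6.74 and -1.85 without hpRNA 2, and to between 1.57 and 6.81 without mock 2. It was 0.61 to 1.11 without hpRNA 1 and -1.19 to -0.69 without mock 1.

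cGAMP against mock gave positive values for all 5 members, 0.57 for Ifit2, 0.80 for Ifit1, 1.14 for Ifit3, 1.14 for Ifit3b and 3.50 for Ifit1bl1, none of which passed the test. Of the 5, 0 were called and 0 had an unadjusted p under 0.05 in edgeR's quasi-likelihood test, and DESeq2 called 0, against 0.0% and 0.588% of all genes. The libraries overlapped for all 5 members, and 14.9% of all genes were higher and 15.1% lower without overlap. Without cGAMP 2 all 5 values were negative, from -0.84 to -0.38, and without mock 1 those of 2 members were, the lowest at -0.20.

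G3-YSD against mock and HSV against mock gave the largest fitted values. For G3-YSD they were 1.94 for Ifit1, 2.45 for Ifit2, 1.80 for Ifit3, 1.95 for Ifit3b and 4.91 for Ifit1bl1, with standard errors of 2.07 to 3.22. For HSV they were 1.84, 2.51, 1.77, 1.97 and 4.95 for the same genes in the same order, with standard errors of 2.08 to 3.23. None of the 5 members passed edgeR's quasi-likelihood test in either comparison, the lowest adjusted p being 0.367 and 0.363, both for Ifit1bl1. None had an unadjusted p under 0.05, and DESeq2 called 0. Over all genes 5.16% were called for G3-YSD (302 higher and 567 lower) and 5.2% for HSV (291 higher and 585 lower). With upper quartile scaling the splits were 364 higher and 314 lower for G3-YSD and 347 higher and 304 lower for HSV. Unadjusted p was under 0.05 for 24.2% and 24.3% of all genes. The libraries overlapped those of mock for all 5 members in both comparisons, while 24.4% of all genes were higher and 22.7% lower in G3-YSD without overlap, and 24.7% and 22.8% in HSV. Without G3-YSD 1 all 5 values were negative, from -4.14 to -1.90, and without HSV 1 they were negative from -3.11 to -2.16.

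HT-DNA against hpRNA, which sets the DNA agent beside the RNA agent, gave 0.88 for Ifit1, 0.58 for Ifit2, 1.14 for Ifit3, 1.23 for Ifit3b and 2.89 for Ifit1bl1. The standard errors were 1.97 to 2.97. In edgeR's quasi-likelihood test 0 of 5 were called and 0 had an unadjusted p under 0.05, and DESeq2 called 0, against 0.0% and 0.457% of all genes. The libraries overlapped for all 5 members, and 13.1% of all genes were higher and 15.4% lower without overlap. Without HT-DNA 2 all 5 values were negative, from -1.50 to -0.54, and without hpRNA 1 those of 2 members were, the lowest at -0.17. The comparisons with mock share the mock libraries, and HT-DNA enters 2 comparisons, so their values are not independent of each other. The members' biological coefficients of variation within labels, 1.16 for Ifit2 and 1.43 to 1.64 for the others, exceeded those of 95.7% to 98.8% of the genes tested, against 0.397 in common.

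HT-DNA and cGAMP stood above mock of the same number for all 5 members, with larger ratios in number 1 for Ifit1, Ifit2, Ifit3 and Ifit3b and in number 2 for Ifit1bl1. These are single libraries, so the ratios have no replicate check. By the distance given above, HT-DNA 1 and cGAMP 1 stood nearer mock 2 than mock 1. Ifit1 was lower in both than in mock 2, at 153 and 178 CPM against 486 CPM. In HT-DNA 1 over mock 1, Ifit1 stood 72.8-fold higher (95% exact binomial interval 52.7 to 104), Ifit3b 61.7-fold (26.2 to 191), Ifit3 35.8-fold (24.9 to 53.3), Ifit1bl1 5.49-fold (1.22 to 50.5, with 12 counts against 2) and Ifit2 2.03-fold (1.86 to 2.22). On CPM with 0.5 added, 4 of the 5 members were at least 2-fold higher, all but Ifit1bl1, against 1.18% of the genes tested. In HT-DNA 2 over mock 2 the ratios were 1.36 for Ifit1, 1.23 for Ifit2, 1.73 for Ifit3 and 1.82 for Ifit3b. Ifit1bl1 alone was at least 2-fold higher there, at 8.98-fold (6.63 to 12.4), against 0.588% of all genes.

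The cGAMP libraries repeated the HT-DNA ones. Ifit1 stood 84.8-fold higher in cGAMP 1 than in mock 1 (61.4 to 121) and 1.38-fold in cGAMP 2 over mock 2 (1.34 to 1.42). Ifit1bl1 stood 9.99-fold higher in cGAMP 1 (2.44 to 87.9) and 11.4-fold in cGAMP 2 (8.41 to 15.7), while Ifit2 stood at 2.15 and 1.37. All 5 members were at least 2-fold higher in cGAMP 1 (1.12% of all genes) and only Ifit1bl1 in cGAMP 2 (0.772%). Set against HT-DNA, cGAMP had ratios of 1.06 to 1.82 in number 1 and 1.02 to 1.27 in number 2, and 0 members reached 2-fold in either number, against 0.0713% and 0.172% of all genes in the higher direction.

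hpRNA over mock gave ratios close to 1 for the members with many counts. In number 2, Ifit1, Ifit2, Ifit3 and Ifit3b stood at 0.907, 0.902, 0.889 and 0.866, all with intervals below 1, and Ifit1bl1 at 1.11 (0.743 to 1.67). In number 1, Ifit2 stood at 0.910 (0.817 to 1.01) and Ifit1 at 1.09 (0.676 to 1.74). Ifit3b at 2.41 (0.790 to 8.73, with 12 counts against 5) and Ifit1bl1 at 3.01 (0.538 to 30.5, with 6 counts against 2) had few counts, and their intervals held 1. On CPM with 0.5 added, no member was 2-fold higher in either number, against 0.0772% and 0.113% of all genes, and none was 2-fold lower, against 0.125% and 0.16%. HT-DNA over hpRNA gave 67.1 for Ifit1, 39.6 for Ifit3, 25.6 for Ifit3b, 2.23 for Ifit2 and 1.82 for Ifit1bl1 in number 1, where 4 of 5 members were at least 2-fold higher against 1.23% of all genes. In number 2 it gave 8.06 for Ifit1bl1 (6.10 to 10.8), 2.11 for Ifit3b and 1.36 to 1.94 for the others, and 2 of 5 members reached 2-fold against 0.754%.

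G3-YSD and HSV stood above mock in number 1 and below it in number 2 for all 5 members. In number 1, Ifit1 was 858-fold higher in G3-YSD and 806-fold higher in HSV, Ifit3 517-fold and 508-fold, and Ifit2 35.1-fold and 36.6-fold. Ifit3b was 989.6-fold higher in G3-YSD (424 to 3049) and 1007-fold in HSV (431 to 3103), with 5 counts in mock 1. Ifit1bl1 was 784-fold higher in G3-YSD (217 to 6482) and 805-fold in HSV (222 to 6650.1), with 2 counts in mock 1. All 5 members were at least 2-fold higher in both, against 16.7% and 16.3% of all genes. In number 2 the ratios to mock were 0.135 in G3-YSD and 0.113 in HSV for Ifit1, 0.0988 and 0.0992 for Ifit2, 0.0676 and 0.0607 for Ifit3, and 0.0850 and 0.0668 for Ifit3b. Ifit1bl1 was at 0.0268 in G3-YSD and 0.0576 in HSV, on 1 and 2 counts against 47 in mock 2. All 5 members were at least 2-fold lower in both, against 11.8% and 11.7% of all genes. HSV over G3-YSD lay between 0.940 and 1.04 in number 1, and in number 2 between 0.786 and 1.00 for all members but Ifit1bl1, whose 2 counts and 1 count gave 2.15 (0.112 to 127).

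**Figure D2:**
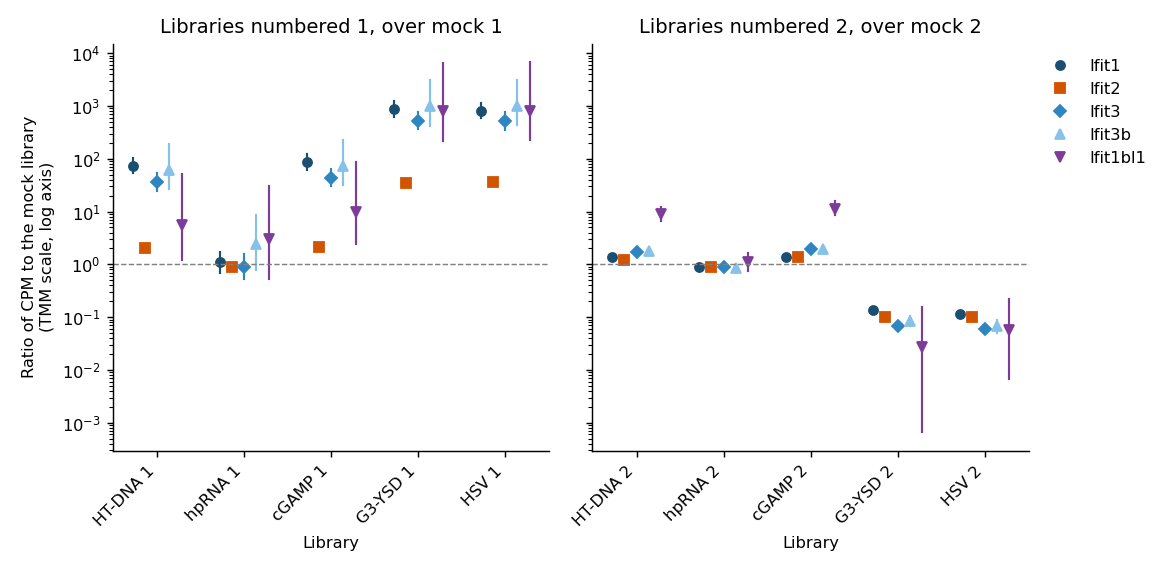
Ratio of each Ifit gene's CPM in a library to that in the mock library of the same number, on log axes, with libraries numbered 1 on the left and 2 on the right. Bars are 95% exact binomial intervals that cover counting error only, and the dashed line marks a ratio of 1. HT-DNA, cGAMP, G3-YSD and HSV stand above 1 on the left for all 5 genes, and on the right G3-YSD and HSV stand below it.

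The 2 libraries of a label also differed. Under HT-DNA library 2 over library 1 gave 3.33 for Ifit2, 4.32 for Ifit1, 7.25 for Ifit3, 7.71 for Ifit3b and 41.2 for Ifit1bl1, and under cGAMP 3.51, 3.77, 6.58, 6.87 and 28.7 for the same genes. Mock 2 over mock 1, neither of them treated, gave 231 for Ifit1 (167 to 328), 261 for Ifit3b (112 to 805), 150.1 for Ifit3 (105 to 223), 25.2 for Ifit1bl1 (6.60 to 214) and 5.52 for Ifit2 (5.10 to 5.99). All 5 members were at least 2-fold higher in mock 2, as were 1.91% of all genes. Within G3-YSD, library 2 stood at 0.0364 of library 1 for Ifit1, 0.0155 for Ifit2, 0.0196 for Ifit3, 0.0224 for Ifit3b and 0.000862 for Ifit1bl1 (2.18e-05 to 0.00481, on 1 count). The mock 2 to mock 1 ratio of Ifit1 thus exceeded every HT-DNA and cGAMP ratio to mock of that gene in either number.

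The make-up of the family, which needs levels per kb of exon, differed in 2 libraries. Ifit2 made up 81.0% of the summed Ifit CPM per kb in hpRNA 1 and 84.2% in mock 1, but 10.9% to 22.5% in the other 10 libraries. Ifit1 made up 7.30% in hpRNA 1 and 6.36% in mock 1, and 36.2% to 56.8% elsewhere. In CPM per kb, Ifit2 had 9.53 in hpRNA 1 and 10.5 in mock 1, where Ifit1 had 0.859 and 0.792. In G3-YSD 2 and HSV 2 Ifit2 was lower still, at 5.72 and 5.74, but there Ifit1 had 24.8 and 20.7. Ifit1 was the most abundant member per kb in 8 libraries, Ifit3 in HT-DNA 2 and cGAMP 2, and Ifit2 in hpRNA 1 and mock 1.

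**Figure D3:**
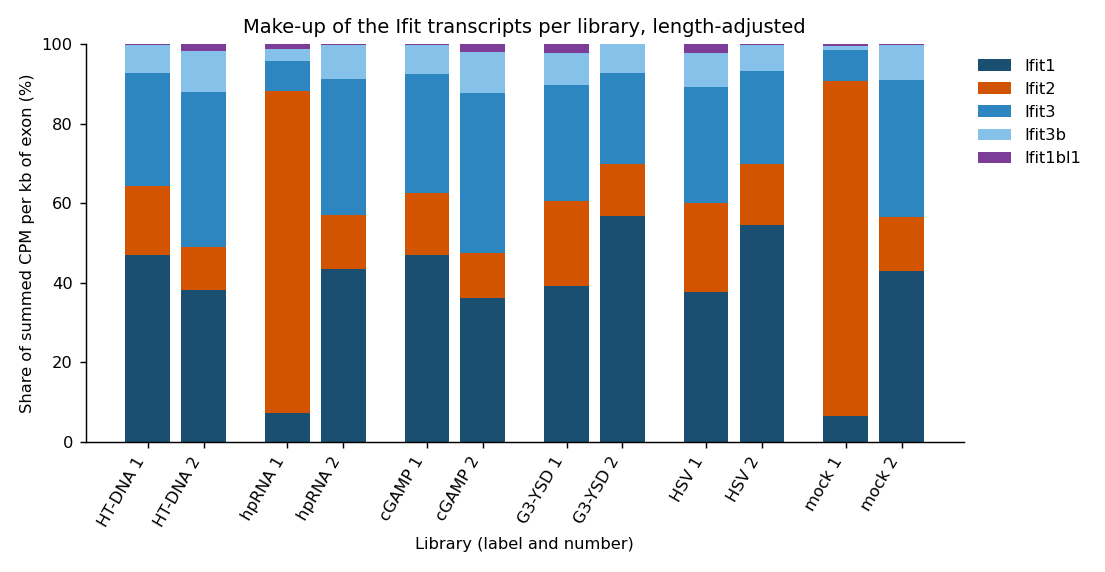
Share of each Ifit gene in the summed Ifit CPM per kb of exon, in percent, with 1 bar per library. Ifit2 makes up over 80% of the bar in hpRNA 1 and mock 1 and at most 22.5% in the other libraries.

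Counts of 2 genes within a library can be compared without scaling, and these ratios split the libraries further. Ifit2 had 16.4 counts per Ifit1 count in hpRNA 1 (11.9 to 23.2) and 19.6 in mock 1 (14.1 to 28.0). It had 0.801 in G3-YSD 1 and 0.887 in HSV 1, and between 0.342 and 0.546 in the other 8 libraries. Ifit1bl1 per 1000 Ifit1 counts stood at 39.0 in HT-DNA 2 (35.2 to 43.0), 48.5 in cGAMP 2 (44.2 to 53.0), 49.4 in G3-YSD 1 (46.9 to 52.0) and 53.9 in HSV 1 (51.2 to 56.8). It stood at 4.08 in HT-DNA 1 (2.11 to 7.14), 6.37 in cGAMP 1 (3.94 to 9.75), 7.24 in hpRNA 2 (5.48 to 9.39) and 5.90 in mock 2 (4.33 to 7.85). These 4 intervals do not meet those of the 4 libraries before, although Ifit1 itself stood at only 1.36 times its mock 2 level in HT-DNA 2 and 1.38 times in cGAMP 2. G3-YSD 2, HSV 2, hpRNA 1 and mock 1 had 1 to 6 Ifit1bl1 counts and wide intervals. The highest ratio was that of hpRNA 1, at 150 (52.0 to 356), and its interval lay above those of the 4 lower libraries. The intervals of G3-YSD 2 (0.0296 to 6.53) and HSV 2 (0.363 to 10.9) lay below those of the 4 higher libraries. Mock 1, at 54.1 (6.31 to 210), could not be placed, as its interval met both sets.

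**Figure D4:**
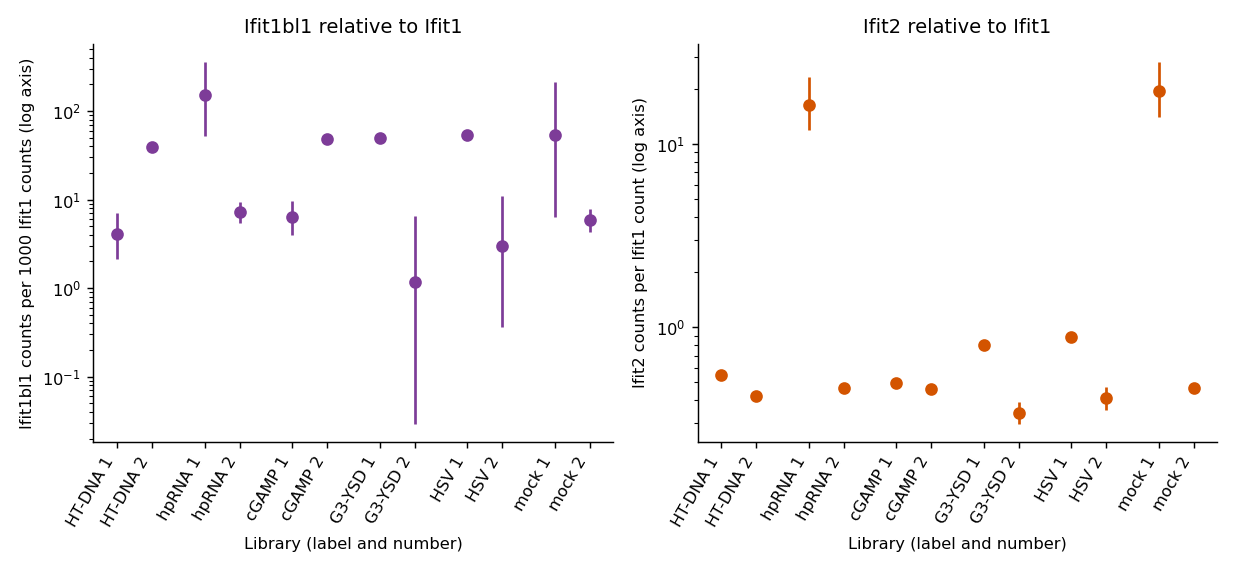
Counts of Ifit1bl1 per 1000 Ifit1 counts (left) and of Ifit2 per Ifit1 count (right) in each library, on log axes, with 95% exact binomial intervals that cover counting error only. On the left HT-DNA 2, cGAMP 2, G3-YSD 1 and HSV 1 lie between 39.0 and 53.9, above HT-DNA 1, hpRNA 2, cGAMP 1 and mock 2. The highest points there, hpRNA 1 at 150 and mock 1 at 54.1, rest on 6 and 2 Ifit1bl1 counts and have wide intervals. On the right hpRNA 1 and mock 1 stand far above the rest.

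Across the 12 libraries the members followed each other to unequal degrees. On log2(CPM + 0.5), Pearson's r was 0.997 for Ifit3 with Ifit3b, 0.986 for Ifit1 with Ifit3 and 0.982 for Ifit1 with Ifit3b, and 0.951 for Ifit2 with Ifit1bl1. It was lowest for Ifit1 with Ifit1bl1, at 0.797, and for Ifit1 with Ifit2, at 0.808. Ifit1bl1 had only 0.0769 to 0.625 CPM in G3-YSD 2, mock 1, HSV 2, hpRNA 1 and HT-DNA 1. The added 0.5 therefore weighs on its values there, and with them on its r with the other members. These are descriptions over libraries that share labels and fall into separate levels, and Ifit3 and Ifit3b can also share reads. The 3 genes with the pair of promoter elements shown above, Ifit1, Ifit3 and Ifit3b, were those with pairwise values of at least 0.982, and whether the elements bear on this was not tested.

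The genes whose pattern was most like the mean of the standardised members were Rnf213 (r = 0.997), a large ubiquitin ligase, Sp100 (0.996), a nuclear body protein, and Znfx1 (0.996), an RNA helicase. Next came Gm43197 (0.994), Lgals9 (0.992), the galectin-9 gene, Pnpt1 (0.992), an RNA-degrading enzyme of mitochondria, Mx1 (0.992) and Mx2 (0.991), antiviral GTPases, Bst2 (0.991), the virus-tethering protein tetherin, and Phf11d (0.991). Of 16835 genes compared, 12 reached 0.99, 124 reached 0.95 and 19 lay at or below -0.95. The likeness is in pattern and not in size: Pnpt1 ran between 53.1 CPM in hpRNA 1 and 184 CPM in HSV 1, a 3.46-fold range, and Rnf213 reached 2665 CPM in HSV 1, against 167 CPM in mock 1. Taken singly, Ifit1 was most like Cxcl10 (0.997), a chemokine, Ifit2 most like Rbms2 (0.997), an RNA-binding protein, and Ifit1bl1 most like F830016B08Rik (0.997). Ifit3 and Ifit3b were both most like Ifi207, at 0.999 and 0.996.

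Of the genes that sense nucleic acid or carry the signal to Ifit genes, 0 of 18 tested passed edgeR's quasi-likelihood test in either direction, in each of the 6 comparisons. Of all genes 0.0% were called in 4 of these comparisons, and 5.16% for G3-YSD and 5.2% for HSV, so a count of 0 in this list or those that follow lies near the overall share. Their medians ran from -0.03 for hpRNA to 0.56 for G3-YSD on the log2 scale, against the Ifit medians of -0.15 and 1.95. Their summed level varied 5.03-fold over the libraries, and 8 of the 18 had an r of at least 0.9 with the family. Of all 16835 genes compared, 124 reached 0.95. How many reached 0.9 was not counted, so the counts at 0.9 in this list and those that follow have no overall share beside them. Ddx58, which encodes RIG-I, had 797 and 24.1 CPM in G3-YSD 1 and 2 and 6.59 and 226 CPM in mock 1 and 2 (r = 0.99), and Ifih1, which encodes MDA5, reached 416 CPM in G3-YSD 1, against 1.36 CPM in mock 1 (0.98). Cgas, the DNA sensor, kept to between 5.28 and 31.1 CPM (0.93), and Tmem173, which encodes STING, to between 14.3 and 33.0 CPM with an r of 0.23. Ifnb1, chosen after its values were seen, had 26.6 and 4.31 CPM in G3-YSD 1 and 2 and 23.9 and 4.13 CPM in HSV 1 and 2. It had 11.2 CPM in HT-DNA 2, 9.21 CPM in cGAMP 2, no count in hpRNA 1, and 0 and 1.83 CPM in mock 1 and 2. Its r with the family was 0.78. In G3-YSD 2 and HSV 2 Ifnb1 stood above mock 2, where the Ifit members stood below it.

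Of the genes that curb interferon signalling, 0 of 7 were called in any of the 6 comparisons (of all genes 0.0%, or 5.16% for G3-YSD and 5.2% for HSV), and 3 had an r of at least 0.9 with the family. Usp18, which removes ISG15 and blocks the interferon receptor, reached 669 CPM in HSV 1, against 2.44 CPM in mock 1 (r = 0.99), and Socs1, an inhibitor of JAK kinases, lay between 3.55 CPM in HSV 2 and 42.7 CPM in cGAMP 2 (0.91). Socs3 (0.20), a related inhibitor, and Ptpn6 (-0.75), a phosphatase, did not follow the family. Among other antiviral effectors that act on RNA or translation, 0 of 14 were called, against the same shares of all genes, their summed level varied 22.3-fold, and 11 had an r of at least 0.9. Rsad2, which encodes viperin, reached 3499.8 CPM in HSV 1, against 3.41 CPM in mock 1 (0.97), and Oas1a, Oas1b and Oas1g, of the oligoadenylate synthetase family that activates RNase L, had r of 0.97, 0.98 and 0.97.

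The RNA cap and translation genes with which Ifit proteins act or compete varied little in sum. None of the 12 was called in any of the 6 comparisons, a count near the shares of all genes (0.0% in 4 comparisons, 5.16% and 5.2% for G3-YSD and HSV). Their summed level varied 1.17-fold, between 3702 and 4330 CPM. Single genes could vary more and in opposite directions, as in 2 that were chosen after their values were seen. Eif3a had 504 and 511 CPM in G3-YSD 2 and HSV 2, against 910 CPM in mock 2. Eif3c had 1329 and 1297 CPM there, against 761 CPM in mock 2. Cmtr1, the enzyme that makes the ribose methylation by which Ifit1 tells host caps apart, was the only 1 of the 12 with an r of at least 0.9 with the family (0.93). It had 12.6 and 2.69 CPM in G3-YSD 1 and 2, 12.5 and 3.14 CPM in HSV 1 and 2, and 4.26 and 6.65 CPM in mock 1 and 2. Cmtr2, the related methyltransferase, Rnmt, which methylates the cap guanine, and its activator Ramac had r of -0.23, 0.29 and 0.09. The fibroblast markers and the markers of other cell types had 0 called in any comparison, of 10 and 9 tested, and no member with an r of at least 0.9.

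Within the locus, Ifit1bl2, which lies between Ifit3b and Ifit1 on the minus strand, with 127 bases between its start and that of Ifit1, followed the members. It had 14 and 77 counts in HT-DNA 1 and 2, 0 and 48 in hpRNA 1 and 2, and 21 and 98 in cGAMP 1 and 2. It had 1002 and 9 counts in G3-YSD 1 and 2, 1003 and 21 in HSV 1 and 2, and 1 and 76 in mock 1 and 2. The flanking genes did not share the pattern. Lipa, the lysosomal acid lipase gene before Ifit2, had 130.2 to 189.6 CPM over all libraries, and Ch25h, which makes an antiviral oxysterol, had 4 counts in G3-YSD 1 and none elsewhere. After Ifit1, Slc16a12 had at most 8 counts, and Pank1, a kinase of coenzyme A synthesis, had 3.55 to 5.00 CPM in the 4 libraries of G3-YSD and HSV and 8.97 to 12.6 CPM in the other 8. Pank1 was called lower against mock in edgeR's quasi-likelihood test. Its log2 fold change was -1.30 for G3-YSD (adjusted p = 0.024) and -1.52 for HSV (adjusted p = 0.017). Of all genes, 5.16% and 5.2% were called in these comparisons.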

How the data were processed

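Each library has 1 deposited file of raw counts by Ensembl identifier. HISAT2, HTSeq and mm10 are named, without versions, per the submitters' processing notes, and the sources used here do not give the annotation release or strand setting. Of 54532 genes, 54495 matched GENCODE M21. No deposited count lay on a line that names no gene. In R 4.3.3, edgeR 4.0.16 removed genes with low counts (filterByExpr, minimum count 10) and applied TMM scaling. All 12 libraries entered 1 quasi-likelihood fit, with the label as the only term and 6 residual degrees of freedom, so each comparison carries the spread of all labels. A call needed an adjusted p under 0.05 (Benjamini-Hochberg over 16840 genes). The standard errors given were derived from the test, as the absolute log2 fold change over the square root of its F statistic. CPM were computed here, and ratios between single libraries have 95% exact binomial intervals (scipy 1.17.1).

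The members and lists were chosen with earlier results of these data known. The text names all members, the genes that flank or lie between them, the 10 genes most like the family and the 1 most like each member, any list gene called, and the first 4 of each pathway list. Alternatives were RLE and upper quartile scaling, raw totals, no filter on low counts, DESeq2 1.42.0, fewer libraries, the number as a block, and leaving out each library. The code was tested on simulated data.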

Additional observations from a re-analysis of the deposited data

How the results depend on the processing

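No member passed the test in 68 of 76 pairs of an alternative setting and a comparison, of which 24 left out 1 library. The 8 exceptions all had a block, which was the numbers crossed for G3-YSD and HSV and the replicate number for the rest. With that replicate block within the 4 libraries compared, 1 member was called for HT-DNA against mock and 1 for cGAMP against mock, both Ifit1bl1 and higher, and 3 for hpRNA against mock, lower (Ifit1, Ifit2 and Ifit3, by 0.14 to 0.17 on the log2 scale). Within the 8 libraries of HT-DNA, hpRNA, cGAMP and mock it called 1 member for HT-DNA, 1 for cGAMP and 1 for HT-DNA against hpRNA, Ifit1bl1 each time. Within all 12 libraries it called 0. Whether the numbers pair the samples is not established: 2 pairs are too few, and deviations of same-numbered libraries correlated at 0.84 for hpRNA, 0.54 for HT-DNA and 0.52 for cGAMP with mock, and at -0.48 for G3-YSD and -0.49 for HSV. With the numbers crossed, chosen after seeing the data, 4 members were called for G3-YSD and 4 for HSV, with 984 and 999 genes in all.

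Over all genes, 869 were called for G3-YSD and 876 for HSV against mock; DESeq2 called 2043 and 2119, no filter 1894 and 1892, and the 4 libraries alone 0 with or without the block. For HT-DNA, hpRNA and cGAMP against mock 0 genes were called; DESeq2 called 1, 1 and 0, the block in 4 libraries 6, 182 and 6 (11 for HT-DNA against hpRNA), and in 8 libraries 14, 0 and 23 (25 for HT-DNA against hpRNA). Without mock 1 or mock 2, 0 were called for G3-YSD or HSV. Without G3-YSD 1 there were 652 calls for G3-YSD and without G3-YSD 2 there were 77, and without HSV 1 there were 682 for HSV and without HSV 2 there were 130.

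The cause of these differences was not tested. Leaving out each library in turn called no member, and 42 of 120 fold changes turned sign. Where that left 1 library in a label, it was assumed to vary like the other labels. The lowest and highest log2 fold changes were as follows. For HT-DNA against mock they were -0.68 to 7.61 for Ifit1, -0.69 to 2.15 for Ifit2, -1.08 to 7.22 for Ifit3, -1.09 to 8.05 for Ifit3b and -1.24 to 6.78 for Ifit1bl1. For hpRNA against mock they were -6.74 to 6.72 for Ifit1, -1.85 to 1.57 for Ifit2, -6.39 to 6.07 for Ifit3, -5.76 to 6.81 for Ifit3b and -2.09 to 3.88 for Ifit1bl1. For cGAMP against mock they were -0.46 to 7.66 for Ifit1, -0.61 to 2.28 for Ifit2, -0.79 to 7.37 for Ifit3, -0.84 to 8.14 for Ifit3b and -0.38 to 7.12 for Ifit1bl1. For G3-YSD against mock they were -1.90 to 8.78 for Ifit1, -2.59 to 4.15 for Ifit2, -2.91 to 8.02 for Ifit3, -2.57 to 8.93 for Ifit3b and -4.14 to 8.51 for Ifit1bl1. For HSV against mock they were -2.16 to 8.70 for Ifit1, -2.58 to 4.22 for Ifit2, -3.06 to 8.01 for Ifit3, -2.92 to 8.97 for Ifit3b and -3.11 to 8.57 for Ifit1bl1. For HT-DNA against hpRNA they were -0.54 to 7.49 for Ifit1, -0.54 to 2.29 for Ifit2, -0.91 to 7.36 for Ifit3, -0.89 to 6.80 for Ifit3b and -1.50 to 5.25 for Ifit1bl1. No sign turned under RLE or upper quartile scaling, no filter, DESeq2 or fewer libraries. Of 110 ratios between single libraries, upper quartile scaling moved 7 beyond their interval, by at most 1.16-fold, and RLE and raw totals moved 0. Depth limits Ifit1bl1 most in G3-YSD 2, HSV 2, hpRNA 1 and mock 1 (1 to 6 counts) and Ifit3b in hpRNA 1 and mock 1 (12 and 5 counts).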
